A study of Caenorhabditis elegans with 12 samples.

Results

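The 10 regulators of seam cell fate and of epidermal cell fusion were followed across the 4 sequenced strains. They were chosen by name for their known roles, with earlier results of these data known, so their counts are a description of these genes: the homeobox gene *ceh-16* (C13G5.1), the GATA factors *egl-18* (F55A8.1), *elt-6* (F52C12.5), *elt-1* (W09C2.1) and *elt-3* (K02B9.4), the RUNX gene *rnt-1* (B0414.2) with its partner *bro-1* (F56A3.5), the nuclear receptor *nhr-25* (F11C1.6), and the fusogens *eff-1* (C26D10.5) and *aff-1* (C44B7.3). All 10 genes, of 20182 genes in the count table, were measured, with 15 of its 23953 entries, and all 15 entries passed the filter on low counts. An entry is a transcript. *elt-1* and *nhr-25* have entries a and b and *eff-1* has entries a to d, and the entries of a gene share reads, so the entry with the highest mean stands for the gene below.

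Seam cells are epidermal cells in rows along each side of the larva that divide in a stem cell-like way at each larval stage. In most of these divisions one daughter keeps the seam fate and the other differentiates, usually by fusing with the hypodermal syncytium hyp7. Wnt signalling sets the asymmetry, GATA and homeobox factors keep the seam fate, the RUNX complex promotes division, and fusogens merge the membranes of cells that leave the lineage or, at the end of larval life, of the seam cells themselves. *lin-22*, a bHLH gene related to the Hes family, acts in this lineage to hold back neurogenic divisions.

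For *eff-1*, *elt-1* and *egl-18* the study also designed single molecule FISH (smFISH) probes, DNA oligonucleotides that bind one mRNA along its length, and the first pair listed for each is shown because it identifies which transcripts can be followed in single cells as well as in the whole-larva counts. There were 47 probes for *eff-1*, 47 for *elt-1* and 35 for *egl-18*, each 20 bases long, and the 129 sequences are all different. *eff-1* is on chromosome II, and *elt-1* and *egl-18* are on chromosome IV. The probes are printed 5′ to 3′, and each is complementary to its mRNA.
eff-1 probe 1: aactggggagaccactcaaa
eff-1 probe 2: aatccgtaggttgtaactgc
elt-1 probe 1: gttagcatcacgataatgca
elt-1 probe 2: agattcactttatttcggga
egl-18 probe 1: cgtcattatgctgatcgaca
egl-18 probe 2: agcacttcgtggtgttgttg
The mean GC content of the sets was 44.2% for *eff-1*, 43.6% for *elt-1* and 46.3% for *egl-18*. The values below come from sequencing and not from these probes.

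RNA came from whole L3 larvae at 31 hr posthatching, with 3 libraries per strain. JR667 is wild type for *lin-22* and carries the seam cell marker *wIs51* (*scm*∷*GFP*) with an *unc-119* rescue in an *unc-119(e2498::Tc1)* background. *lin-22(icb38)* (strain MBA81) carries the same *wIs51* and a deletion on the upstream side of *lin-22*, 2371 bp from the ATG. *lin-22(ot267)* (OH4265) has a stop codon in the coding sequence (W62STOP) and *lin-22(ot269)* (OH4271) has a C-to-T change at -4940 from the ATG, and both carry *vtIs1* instead of *wIs51*. The mutants are called by their alleles below, and *icb38* and *ot269* together are the upstream mutants. Hence *icb38* against JR667 and *ot269* against *ot267* each compare strains with one transgene and share no library, whereas the other 2 mutants differ from JR667 by transgene too, and there the allele and the transgene cannot be told apart. Nothing states that the libraries of a strain came from separate cultures, so p-values measure the spread between these libraries, which may be technical.

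Total counts were between 56479069 and 78920246 per library, and the lowest raw count of any of the 15 entries in any library was 31. Values below are normalised counts, that is, counts divided by a size factor per library, and they do not correct for transcript length, so levels are compared between strains and not between genes. Replicate 1 of JR667 and replicate 1 of *icb38* stood apart from the other 2 libraries of their strains (chi-square per entry 133 and 128 for JR667 and 124 and 125 for *icb38*, against 37.2 and 38.2 between the others). JR667 replicate 3 was the lowest JR667 library for 8 of the 10 genes and the highest for *aff-1*. *lin-22* itself had 342, 251 and 267 normalised counts in JR667, 270.0, 107 and 198 in *icb38*, 356, 336 and 293 in *ot267*, and 167, 158 and 101 in *ot269*, and fell by 1.01 on the log2 scale in *ot269* against JR667 (edgeR adjusted p = 0.0207). In *icb38* against JR667 *lin-22* was not called, and *icb38* replicate 1 lay inside the JR667 range. The stop codon of *ot267* cannot be read from counts. Because whole larvae were used, fewer cells of a type and less RNA per cell cannot be told apart.

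The 10 genes moved most in *ot269*, where 7 were higher and 1, *aff-1*, was lower than in JR667. In *icb38*, *ceh-16*, *egl-18* and *nhr-25* were higher and *aff-1* was lower. In *ot267* the calls were *nhr-25*, higher, and *elt-3*, lower. These are calls at an adjusted p of 0.1 from quasi-likelihood tests in edgeR, with p-values adjusted by Benjamini-Hochberg over the 19696 entries tested. The background, the share of all 16236 genes and other features tested that were called in either direction, was 26.9% in *ot269*, 16.4% in *icb38* and 8.91% in *ot267*, against 8, 4 and 2 of the 10 regulators. For calls in the higher direction alone the background was 13%, 7.06% and 4.2%, against 7, 3 and 1 regulators. The libraries of a mutant did not overlap with those of JR667, in either direction, for 8 regulators in *ot269*, 6 in *icb38* and 2 in *ot267*, where 40.1%, 28% and 23.7% of all genes tested did not. The median log2 fold change of the 10 genes was 0.59 in *ot269*, 0.32 in *icb38* and 0.05 in *ot267*, while that over all genes tested was between -0.01 and 0.01. The 3 comparisons share the JR667 libraries, so they are not independent of one another. The count in *icb38* was 2 without JR667 replicate 3, without *icb38* replicate 2 or without *icb38* replicate 3, where *ceh-16* and *aff-1* were lost. With replicate 1 of JR667 and of *icb38* both left out, an alternative chosen after seeing the data, the count was 6, with *elt-1* and *eff-1* added.

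**Figure D1:**
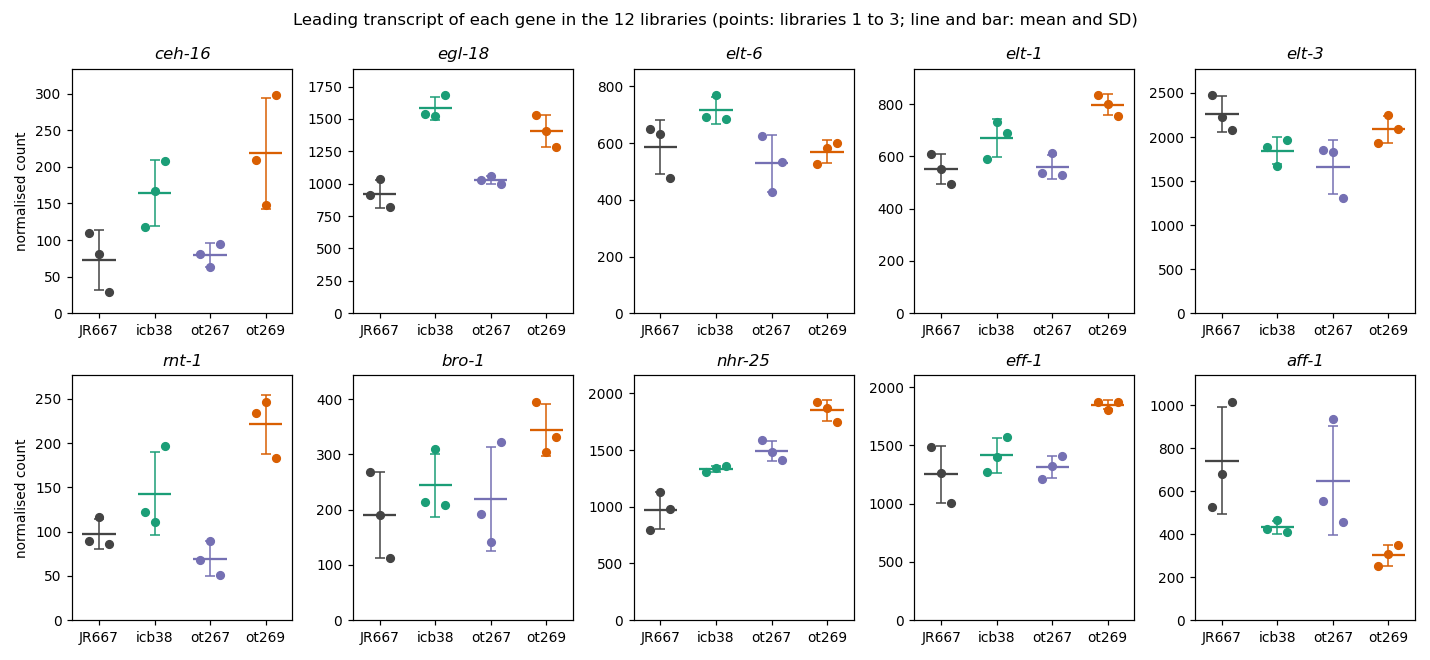
Normalised count (vertical axis, from 0) of the leading transcript of each of the 10 genes in the 3 libraries of JR667, *icb38*, *ot267* and *ot269*; points are libraries in the order of replicates 1 to 3, and the line and bar are the mean and SD. *aff-1* was between 249.9 and 348 in *ot269*, under every JR667 library, and *egl-18* was at 1282 or more in every library of both upstream mutants.

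*ceh-16*, the engrailed-type homeobox gene that maintains seam identity and keeps seam cells from fusing, was higher in the upstream mutants, at 2.25 times JR667 in *icb38* and 2.99 times in *ot269*. JR667 had 109.9, 80.6 and 28.5 normalised counts in replicates 1 to 3. *icb38* had 118, 167 and 207, and *ot269* had 209, 148 and 298. *ot267* had 81.4, 62.9 and 95, inside the JR667 range, while every library of the upstream mutants was above every library of JR667 and of *ot267*. The mean was 73 ± 41.2 in JR667, 164 ± 44.7 in *icb38*, 79.8 ± 16.1 in *ot267* and 218 ± 75.8 in *ot269* (SD, n = 3 each). Against JR667 the log2 fold change was 1.17 in *icb38* (standard error 0.40, edgeR adjusted p = 0.0738) and 1.58 in *ot269* (standard error 0.40, edgeR adjusted p = 0.0126). With 1 library left out at a time, the *icb38* call was held in 2 of 6 cases and lost without replicate 2 or 3 of either strain. It was 0.96 without *icb38* replicate 3 (edgeR adjusted p = 0.224), and its lowest value, without JR667 replicate 3, was 0.78. The call was also lost when only the 6 libraries of the compared strains were fitted. *ceh-16* had the widest spread of the 10 genes in JR667, with an SD of 56.5% of the mean.

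*egl-18*, a GATA factor that acts downstream of Wnt signalling to keep the seam fate, was higher in both upstream mutants with little spread between libraries. JR667 had 912, 1037 and 817 normalised counts and *ot267* 1026, 1061 and 997. *icb38* had 1535, 1525 and 1686, and *ot269* had 1531, 1409 and 1282. No library of the upstream mutants overlapped with JR667 or *ot267*, and these last strains overlapped with each other. Against JR667 the log2 fold change was 0.78 in *icb38* (standard error 0.11, edgeR adjusted p = 0.000725), 0.61 in *ot269* (standard error 0.11, edgeR adjusted p = 0.00171) and 0.16 in *ot267* (edgeR adjusted p = 0.453). Each of the 2 calls was held in all 6 fits that left out a library.

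*elt-6*, the GATA gene that follows *egl-18* directly on the chromosome and acts redundantly with it, was not called in any mutant against JR667. JR667 had 649, 633 and 475 normalised counts, and *icb38* had 691, 771 and 686, all above JR667. *ot267* had 626, 426 and 534, and *ot269* had 525, 583 and 602. The change against JR667 on the log2 scale was 0.29 in *icb38* (standard error 0.15, edgeR adjusted p = 0.262) and -0.04 in *ot269* (standard error 0.15, edgeR adjusted p = 0.892), and the *ot269* libraries lay inside the JR667 range. A difference between *egl-18* and *elt-6* in their fold changes was not tested.

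*elt-1*, the GATA factor that specifies epidermal fate and is needed to keep seam cells, was higher in *ot269*. Entry a had 609, 551 and 496 normalised counts in JR667, 592, 730.2 and 691 in *icb38*, 538, 612 and 528 in *ot267*, and 836, 800.5 and 756 in *ot269*. The *ot269* libraries were above every other library. Relative to JR667 the log2 fold change was 0.53 in *ot269* (standard error 0.12, edgeR adjusted p = 0.00861) and 0.28 in *icb38* (standard error 0.12, edgeR adjusted p = 0.172).

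In *ot267* the *elt-1* entries stood in another ratio than elsewhere. Entry b was at 543, 503 and 501 normalised counts in JR667 and at 394, 429.8 and 352 in *ot267*, lower in every library but not past the threshold (log2 fold change -0.40, standard error 0.14, edgeR adjusted p = 0.115). Entry b amounted to 70.0% ± 3.26 of entry a in *ot267*, between 66.7% and 73.2%, and to 93.9% ± 6.35 in JR667, 90.1% ± 9.08 in *icb38* and 84.0% ± 4.81 in *ot269* (SD, n = 3 each). All 9 libraries of the other strains were at 80.2% or more. This ratio was singled out after its values were seen, has no test of its own, and cannot be assigned to an isoform because the entries share reads.

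*elt-3*, a GATA factor of the hypodermis outside the seam, was lower in *ot267*. JR667 had 2479, 2227 and 2083 normalised counts, *icb38* 1888, 1674 and 1970.4, *ot267* 1854, 1825 and 1310.2, and *ot269* 1937, 2245 and 2087. All libraries of *icb38* and *ot267* were below all JR667 libraries, while those of *ot269* overlapped with them. On the log2 scale the change from JR667 was -0.44 in *ot267* (standard error 0.13, edgeR adjusted p = 0.0664), -0.30 in *icb38* (standard error 0.13, edgeR adjusted p = 0.174) and -0.11 in *ot269* (edgeR adjusted p = 0.592). The *ot267* call was lost without JR667 replicate 1, without JR667 replicate 2, without *ot267* replicate 3 (-0.30, edgeR adjusted p = 0.239) and with library totals in place of size factors.

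*rnt-1*, the RUNX transcription factor that promotes seam cell division, was highest in *ot269*. JR667 had 89.6, 117 and 85.5 normalised counts, *icb38* 122, 111 and 197, *ot267* 68.0, 89.9 and 51.0, and *ot269* 234, 247 and 184. *ot269* was above all JR667 and *ot267* libraries, and *icb38* overlapped with JR667. The log2 fold change against JR667 was 1.19 in *ot269* (standard error 0.27, edgeR adjusted p = 0.0079), 0.56 in *icb38* (standard error 0.27, edgeR adjusted p = 0.22) and -0.48 in *ot267* (standard error 0.28, edgeR adjusted p = 0.37).

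*bro-1*, the CBFβ homologue that binds RNT-1 and raises its activity, had 269, 191 and 112 normalised counts in JR667. It had 213, 309.7 and 209 in *icb38*, 193, 141 and 323 in *ot267*, and 395, 305 and 332 in *ot269*. All *ot269* libraries were above JR667, but the SD was 41.1% of the mean in JR667 and 42.8% in *ot267*. The rise of 0.85 on the log2 scale in *ot269* (standard error 0.31, edgeR adjusted p = 0.0724) was held with JR667 replicate 1 left out and lost with any other library left out. It was 0.58 when JR667 replicate 3 was dropped (edgeR adjusted p = 0.233).

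*nhr-25*, the Ftz-F1-type nuclear receptor needed for seam cell contacts and moulting, was higher in all 3 mutants. JR667 had 797, 1128 and 981 normalised counts of entry a, *icb38* 1309, 1340.0 and 1359, *ot267* 1586, 1487 and 1409.8, and *ot269* 1927, 1875 and 1745. The strains did not overlap at all, in the order JR667, *icb38*, *ot267* and *ot269*. Against JR667 the log2 fold change was 0.46 in *icb38* (edgeR adjusted p = 0.0222), 0.63 in *ot267* (edgeR adjusted p = 0.00673) and 0.93 in *ot269* (edgeR adjusted p = 9.43e-05), each with a standard error of 0.12, and each was held in all fits that left out a library. The neighbours in this order, *icb38* and *ot267*, were not separated by the test (-0.16, edgeR adjusted p = 0.405), nor were *ot267* and *ot269* (0.31, edgeR adjusted p = 0.15). Entry b rose too, with log2 fold changes of 0.55, 0.59 and 0.95 against JR667, all past the threshold. In entry b *icb38*, with 1079, 1045 and 1012 normalised counts, overlapped with *ot267*, with 1204, 1004 and 1005. The order without overlap is thus that of entry a only.

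*eff-1*, the fusogen that merges seam daughters with hyp7, was higher in *ot269*. Entry a had 1488, 1259 and 1003 normalised counts in JR667, 1274, 1397 and 1569.5 in *icb38*, 1214, 1321 and 1407 in *ot267*, and 1871, 1804 and 1875 in *ot269*. The *ot269* libraries were above every other library, and the other strains overlapped. The change against JR667 on the log2 scale was 0.57 in *ot269* (standard error 0.13, edgeR adjusted p = 0.0085), 0.18 in *icb38* (edgeR adjusted p = 0.435) and 0.07 in *ot267* (edgeR adjusted p = 0.80). In *ot269* entries b and d rose by 0.59 and 0.54, past the threshold, and entry c, the least abundant at 40.5 to 103 counts in the 12 libraries, had 0.21 (edgeR adjusted p = 0.678).

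*aff-1*, the fusogen that joins seam cells to each other at the end of larval life and acts in a few other cells such as the anchor cell, was the only one of the 10 called lower in the upstream mutants. JR667 had 527, 681 and 1016 normalised counts and *ot267* 554, 934 and 458. *icb38* had 424, 465 and 408, and *ot269* had 249.9, 307 and 348. *ot269* was below all other libraries, and *icb38* was below all JR667 libraries but overlapped with *ot267*. Relative to JR667 the log2 fold change was -0.78 in *icb38* (standard error 0.26, edgeR adjusted p = 0.0657), -1.30 in *ot269* (standard error 0.26, edgeR adjusted p = 0.0032) and -0.19 in *ot267* (edgeR adjusted p = 0.712). The *icb38* call was held without JR667 replicate 1 or 2 and lost without any *icb38* library or JR667 replicate 3, where it was -0.48 (edgeR adjusted p = 0.283), whereas the *ot269* call was held in all 6.

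**Figure D2:**
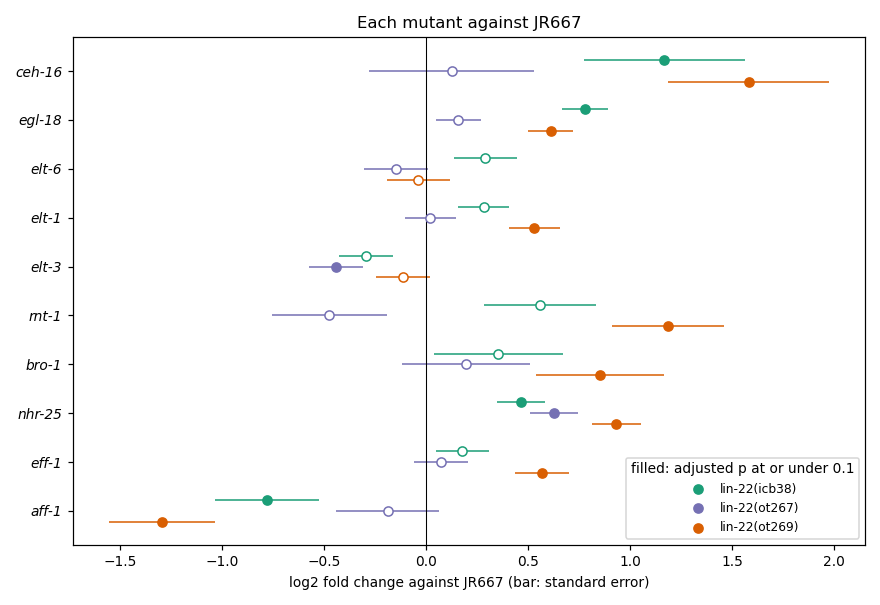
Log2 fold change of each gene's leading transcript in each mutant against JR667 (horizontal axis), with its standard error; filled points had an edgeR adjusted p of 0.1 or less. *aff-1* lies at -0.78 and -1.30 in the upstream mutants, and *nhr-25* is filled in all 3 mutants.

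The fusogens thus moved apart in *ot269*, with *eff-1* higher and *aff-1* lower. *aff-1* and *ceh-16* had been called in opposite directions in the upstream mutants, so their split between strains repeats those calls and is no separate result. All 6 libraries of the upstream mutants had 118 or more normalised counts of *ceh-16* and 465 or fewer of *aff-1*. All 6 libraries of JR667 and *ot267* had 109.9 or fewer of *ceh-16* and 458 or more of *aff-1*, so the sets overlapped in *aff-1*. Within JR667 the library with the least *ceh-16*, replicate 3 with 28.5, had the most *aff-1*, 1016, and within *ot267* replicate 2 had the least *ceh-16*, 62.9, and the most *aff-1*, 934. In *icb38* replicate 3 had the most *ceh-16* and the least *aff-1*, and in *ot269* replicate 3 had the most of both.

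**Figure D3:**
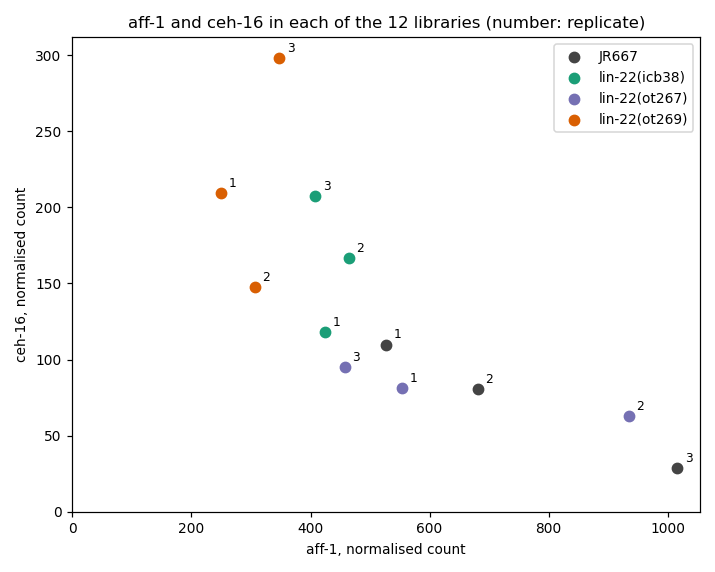
Normalised count of *aff-1* (horizontal axis) and *ceh-16* (vertical axis) in each of the 12 libraries, coloured by strain and numbered by replicate. The upstream mutants fill the upper left, with *ceh-16* at 118 or more, and JR667 replicate 3 is at the lower right with 28.5 counts of *ceh-16* and 1016 of *aff-1*.

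The comparisons within one transgene ask whether the upstream alleles differ from a strain with the same marker. In *ot269* against *ot267*, *ceh-16*, *egl-18*, *elt-1*, *rnt-1* and *eff-1* were higher and *aff-1* was lower, 6 of the 10 genes against a background of 10.6%. *rnt-1* had the largest difference, 1.66 on the log2 scale (standard error 0.28, edgeR adjusted p = 0.00189), and *aff-1* fell by 1.11 (standard error 0.26, edgeR adjusted p = 0.0181). Both were held in every fit that left out a library. Without *ot269* replicate 1 only these 2 of the 6 calls remained, and *egl-18* was then 0.39 (edgeR adjusted p = 0.128) and *elt-1* 0.47 (edgeR adjusted p = 0.105). *ceh-16* was lost without replicate 1 or 2 of *ot267* and without replicate 1 or 3 of *ot269* (1.16 without the latter, edgeR adjusted p = 0.187). *eff-1* was lost without replicate 1 or 3 of *ot269* and without *ot267* replicate 1 (0.44, edgeR adjusted p = 0.135).

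*ceh-16*, *egl-18* and *aff-1* passed the threshold in one direction in both within-transgene comparisons, 3 of 10 against 2.58% of all genes tested. The side by side log2 values were 1.17 and 1.46 for *ceh-16*, 0.78 and 0.45 for *egl-18*, and -0.78 and -1.11 for *aff-1*, with *icb38* against JR667 given before *ot269* against *ot267*. Of the 10 genes, 9 had the same sign in both, and over all genes tested 61.3% did. *elt-3* was the exception, at -0.30 and 0.33, neither past the threshold alone. The difference between its effects, 0.62 on the log2 scale (standard error 0.19), passed the threshold (edgeR adjusted p = 0.0872) in a test added after the data were seen, in which 5.84% of all genes were called. For *rnt-1* the effects of 0.56 and 1.66 differed by 1.10 (standard error 0.39, edgeR adjusted p = 0.157), and for the other 8 genes the difference was between -0.33 and 0.32 with edgeR adjusted p from 0.314 to 0.848.

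**Figure D4:**
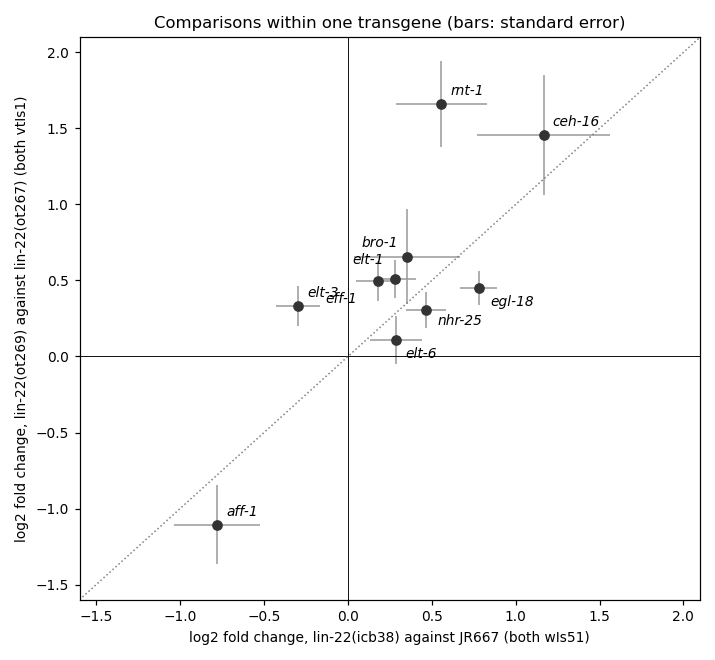
Log2 fold change of the 10 genes in *icb38* against JR667 (horizontal axis, both with *wIs51*) and in *ot269* against *ot267* (vertical axis, both with *vtIs1*), with standard errors; the dotted line marks equal values. *ceh-16*, *egl-18* and *aff-1* were called on both axes, and *elt-3* is the only gene with opposite signs.

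Averaged over both transgenes, the upstream alleles were tested with 6 libraries against 6. *ceh-16* (1.31, edgeR adjusted p = 0.00585), *rnt-1* (1.11, edgeR adjusted p = 0.0018), *egl-18* (0.62, edgeR adjusted p = 0.000173), *elt-1* (0.40, edgeR adjusted p = 0.0076), *nhr-25* (0.39, edgeR adjusted p = 0.0063) and *eff-1* (0.34, edgeR adjusted p = 0.0251) were higher on the log2 scale. *aff-1* fell by 0.94 (standard error 0.18, edgeR adjusted p = 0.00318). These 7 of 10 compare with a background of 23%, and each of the 7 was held in all 12 fits that left out a library. Of the 7, *rnt-1*, *elt-1* and *eff-1* were not called in *icb38* against JR667 alone, and *nhr-25* was not in *ot269* against *ot267* alone. *elt-6* (0.20, standard error 0.11), *bro-1* (0.51, standard error 0.22) and *elt-3* (0.02, standard error 0.09) did not pass. This average sets strains with a change upstream of *lin-22* against a group that holds a wild type and a coding mutant.

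*ot269* and *icb38* differ by transgene as well as by allele, which cannot be told apart here. Between them *nhr-25* was 0.47 higher in *ot269* than in *icb38* on the log2 scale (standard error 0.12, edgeR adjusted p = 0.0173), and *eff-1* was 0.39 higher (standard error 0.13, edgeR adjusted p = 0.0686). That is 2 of 10 genes where 18.9% of all genes were called, and the *eff-1* call was held only without *icb38* replicate 3, with 0.32 without *icb38* replicate 1 (edgeR adjusted p = 0.201). Entry b of *nhr-25* had 0.40 and was not called (edgeR adjusted p = 0.125). Between *icb38* and *ot267*, which differ by transgene, 3 of 10 were called against 18.8%. They were *egl-18* at 0.62 (edgeR adjusted p = 0.00208), *rnt-1* at 1.03 (edgeR adjusted p = 0.0271) and *elt-6* at 0.44 (edgeR adjusted p = 0.0826). Entry b of *elt-1* also passed (0.63, edgeR adjusted p = 0.00816), while its leading entry a had 0.26 (edgeR adjusted p = 0.193). *rnt-1* was 0.73 without *icb38* replicate 3 (edgeR adjusted p = 0.136), and *elt-6* was held only without *ot267* replicate 1, with 0.30 without *ot267* replicate 2 (edgeR adjusted p = 0.26), and was lost with library totals, with a replicate block and with only the 6 libraries compared. *ceh-16* had the largest difference of the 10, 1.04 (standard error 0.40, edgeR adjusted p = 0.102), with all *icb38* libraries above all *ot267* libraries. It passed the threshold in 6 of the 9 alternatives that changed the fit or left out a pair of libraries. With 1 library left out at a time it passed in 1 of 6 fits, and was 0.84 without *icb38* replicate 3 (edgeR adjusted p = 0.277). An F-test over the 4 strains called 8 of 10 genes where 35.8% of all genes were called, and *elt-6* (edgeR adjusted p = 0.151) and *bro-1* (edgeR adjusted p = 0.164) were the genes not called.

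The genes around these regulators were followed in 6 lists, which share some genes: *lin-29*, for one, is in 3 of them. Of 16 other epidermal transcription factors, 4 rose and 1 fell in *icb38*, 2 rose in *ot267*, and 7 rose and 2 fell in *ot269*, all against JR667, where 16.4%, 8.91% and 26.9% of all genes tested were called in either direction. The median log2 fold changes were 0.24, 0.11 and 0.30. The list holds *lin-22* itself, which is 1 of the 2 that fell in *ot269*, and *cki-1* is the other. *grh-1*, the Grainyhead factor of the epidermis, rose by 0.57 in *icb38* (edgeR adjusted p = 0.026) and 0.90 in *ot269* (edgeR adjusted p = 0.000924). *bed-3*, a zinc finger gene of moulting and vulval divisions, rose in all 3 mutants by 0.56, 0.68 and 0.88, and *sem-2*, a SoxC factor, by 0.39, 0.47 and 0.45. *cki-1*, the cyclin-dependent kinase inhibitor that was placed in this list for its role in stopping division, fell by 0.54 in *ot269* (edgeR adjusted p = 0.0174). *lin-29*, the zinc finger gene of the larva-to-adult switch, fell by 0.44 in *icb38* (edgeR adjusted p = 0.0734).

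Of 9 Wnt asymmetry genes, 3 rose in *icb38*, 0 in *ot267* and 4 in *ot269*, and none fell by edgeR's test, where 7.06%, 4.2% and 13% of all genes rose. The medians were 0.29, 0.21 and 0.22, and in *ot267* 3 of the 9 had an unadjusted p under 0.05 and DESeq2 called 2. *lin-17*, a Frizzled receptor, rose by 0.40 and 0.41 in *icb38* and *ot269*, *pry-1*, an Axin, by 0.33 and 0.26, and *bar-1*, a β-catenin, by 0.29 and 0.34. *apr-1*, the APC homologue, rose by 0.53 in *ot269* and had 0.32 in *icb38*, not past the threshold. In *ot267*, with none of these called, the log2 fold changes were 0.34 for *lin-17*, 0.11 for *pry-1*, 0.26 for *bar-1* and 0.30 for *apr-1*. All *ot267* libraries of *lin-17*, *bar-1* and *apr-1* were above all JR667 libraries, and those of *pry-1* overlapped with them. Of all genes tested, 23.7% did not overlap between these strains in either direction. Between *ot269* and *ot267* edgeR and DESeq2 called 0 of the 9, and 1 had an unadjusted p under 0.05, where edgeR called 10.6% of all genes. Of 12 fusion regulators, 11 were tested. Of these 3 rose and 1 fell in *icb38* and 2 rose in *ot269*, and in *ot267* 0 were called by edgeR or DESeq2 and 0 had an unadjusted p under 0.05, with medians of 0.27, 0.08 and 0.06 in this order. The shares of all genes called in either direction were 16.4% in *icb38*, 26.9% in *ot269* and 8.91% in *ot267*, so the fusion list had a smaller share called than all genes in the last 2 strains. *egl-43*, a zinc finger regulator of the anchor cell, had 639, 749.9 and 505 normalised counts in JR667 and 1088, 1409 and 1246 in *icb38*, a log2 rise of 0.98 (edgeR adjusted p = 0.0012), and rose by 0.51 in *ot269* (edgeR adjusted p = 0.0312). *ref-2*, a Zic factor that keeps ventral epidermal cells unfused, was 1.20 higher in *ot269* than in *ot267* (edgeR adjusted p = 0.0468).

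The moult cycle and stage timing lists had most calls in *ot269*. Of 17 moult cycle genes, 2 rose and 1 fell in *icb38*, 1 rose in *ot267* and 11 rose in *ot269*, where 16.4%, 8.91% and 26.9% of all genes were called in either direction, so that the count stood clear of that share in *ot269* and was close to it or below it in the other mutants. The medians were 0.27, 0.07 and 0.49 on the log2 scale. *mlt-10*, a moulting gene, had 12577, 23836 and 16493 normalised counts in JR667 and 50473, 53096 and 42627 in *ot269*, a log2 rise of 1.47 (edgeR adjusted p = 0.000427). Of 10 stage timing genes, 5 rose and 1 fell in *icb38*, 0 were called in *ot267* and 7 rose in *ot269*, with medians of 0.37, 0.19 and 0.65, beside the same 16.4%, 8.91% and 26.9% of all genes. In *ot267* 3 of the 10 had an unadjusted p under 0.05 and DESeq2 called 1. *daf-12*, the steroid receptor of the heterochronic pathway, had 1463, 1934 and 1409 normalised counts in JR667, 3321, 3248 and 3103 in *icb38*, 2085, 1743 and 1975 in *ot267*, and 4171, 3508 and 3711 in *ot269*. *lin-41*, a repressor of adult fates, rose by 1.25 and 1.22 in the upstream mutants.

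The summed normalised counts of the moult cycle list ran from 257894 to 382142 in JR667, 314144 to 429393 in *icb38*, 238891 to 299346 in *ot267* and 455010 to 487407 in *ot269*. Those of the stage timing list ran from 28093 to 39806, 42673 to 49505, 31366 to 35598 and 49208 to 52632 in the same order of strains. Both sums were above all JR667 libraries in *ot269*, whereas in *icb38* the stage timing sum was above them and the moult cycle sum overlapped with them, and the part of these differences in the results for the regulators was not tested. The 14 epidermal products tested of 16 listed had 2, 2 and 5 rises and no fall in *icb38*, *ot267* and *ot269* by edgeR's test, where 7.06%, 4.2% and 13% of all genes rose, with medians of 0.13, -0.12 and 0.32. The antimicrobial peptide gene *cnc-2* rose in each, by 0.97, 1.40 and 1.50. In *ot267* 4 of the 14 products had an unadjusted p under 0.05 and DESeq2 called 4, in directions not given here.

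**Figure D5:**
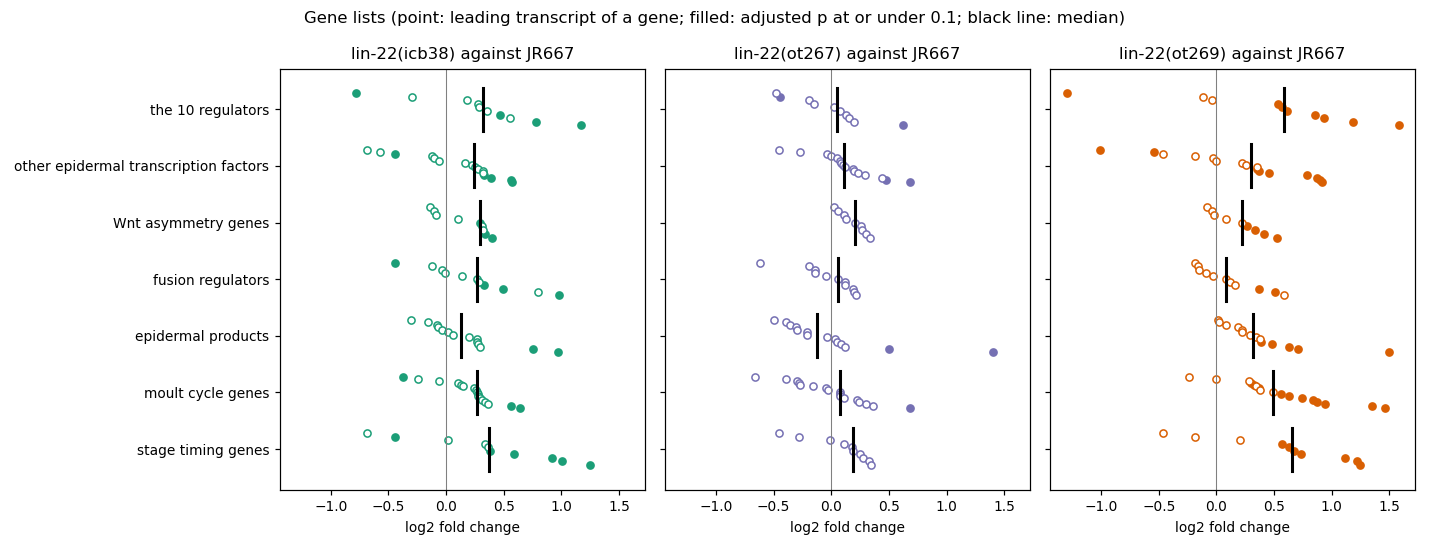
Log2 fold change against JR667 (horizontal axis) of each gene in the 10 regulators and the 6 lists, one panel per mutant; a point is the leading transcript of a gene, filled where the edgeR adjusted p was 0.1 or less, and the black line is the list's median. The medians of the moult cycle and stage timing lists lie at 0.49 and 0.65 in *ot269*, against 0.07 and 0.19 in *ot267*.

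Markers of cell types were read from the same libraries. Of the 3 seam markers, *wrt-2* (a hedgehog-related gene) and *nhr-73* rose in *ot269*, by 0.71 and 0.91 on the log2 scale, and *grd-10* was not called, where 26.9% of all genes were called. In *icb38* and in *ot267* 0 of the 3 were called against JR667 by edgeR or DESeq2, and 0 had an unadjusted p under 0.05. The summed seam marker counts ran from 10174 to 13203 in JR667, 10948 to 13681 in *icb38*, 10172 to 11281 in *ot267* and 16771 to 17102 in *ot269*. The sum in *ot269* was above that in all other libraries, but *grd-10* had 4251, 4001 and 4761 normalised counts there, which overlapped with 4386, 3664 and 4206 in JR667. Of 3 hypodermis markers edgeR called 0 against JR667 in each mutant, while in *ot267* 1 had an unadjusted p under 0.05 and was called by DESeq2. Of 4 germline markers 3 fell in *icb38*, where 16.4% of all genes were called, with sums of 20055 to 29179 against 26478 to 48150.2 in JR667, and of 4 pharynx markers 2 fell in *ot269*, where 26.9% were called, with sums of 54677 to 64962 against 83729 to 115386. Of 5 neuron markers *egl-3* alone was called in *icb38*, rising by 0.45. Of 4 body wall muscle markers *myo-3* alone was called there, rising by 0.79, beside the same 16.4% of all genes. Of 4 intestine markers *act-5* alone was called in *ot269*, falling by 0.38, where 26.9% of all genes were called. The marker genes were all above 3 counts in at least 1 library of each strain, and their part in the results for the 10 genes was not tested.

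The genes whose pattern over the 12 libraries was most like that of the 3 regulators with the smallest F-test p were found by the root mean square difference of mean-centred log2 normalised counts. For *egl-18*, whose own values departed from their mean by 0.33, they were *ctbp-1* (F49E10.5, difference 0.09), *ztf-6* (W06H12.1, 0.11) and W03G11.4 (0.12). For *nhr-25*, with 0.36, they were *daf-16* (R13H8.1b, 0.11), *swp-1* (B0336.9d, 0.13) and *moe-3* (F32A11.6, 0.13). For *rnt-1*, with 0.68, they were *cyts-1* (F01D4.8, 0.30), T26H5.9 (0.30) and *nssp-55* (C12D5.3, 0.32), which are further away. Likeness was sought among transcripts of other genes with mean normalised counts of 100 or more, and it is a description with no test.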

How the data were processed

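The 12 libraries were assigned to strains and replicates from their labels. Stranded mRNA libraries were sequenced, and the authors deposited whole-number counts per transcript, obtained with bedtools from Bowtie2 alignments. Versions, genome build, annotation and the use of strand in counting are not given in the sources used here. The authors also deposited normalised counts, a signal made with DESeq size factors, which was not used. No coordinates are given, and overlapping or antisense genes may share reads.

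The tests used edgeR 4.0.16 in R 4.3.3 (functions glmQLFit, glmQLFTest). A single fit held the 12 libraries, with RLE size factors and filterByExpr at a count minimum of 10, and p-values were adjusted by Benjamini-Hochberg over the 19696 entries kept of 23953. The threshold was 0.1. A standard error is approximate, being the size of a log2 fold change over the root of its F. The 10 genes are always named, with the values of the leading entry unless another entry is given. List members were named when past the threshold, and the look-alike genes by the rule given with them. The members and lists were chosen with earlier results of these data known. Of 23764 gene entries, 23130 had a name in the RefSeq table of WBcel235. Alternatives were a threshold of 0.05, TMM, library totals, other filters, a replicate block, 1 entry per gene, the 6 libraries compared, DESeq2 1.42.0, and each library left out. On simulated data for *ot269* against JR667 with 19696 entries, 194 of 200 changed entries were recovered and 18 others were called. The median absolute log2 fold change of these 200 entries was 1.49. Recovery of much smaller log2 fold changes was not tested.

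For each library the mean of its strain was subtracted from the log2 normalised counts. These deviations correlated between -0.125 and 0.065 over 18 pairs of same-numbered libraries, so the numbers were not taken as pairs. Replicates were distinct libraries: the lowest chi-square per entry between them was 13.9. An exact two-sided permutation test of 1 gene with 3 libraries a strain reaches p = 0.1 at best. Plots were made with Python 3.11.15 and matplotlib 3.10.9.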

Additional observations from a re-analysis of the deposited data

Results flagged for a closer look

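Direct comparisons between mutants that passed the threshold are listed here for the leading entry of each gene. *icb38* carries another transgene than *ot267* and *ot269*, so in comparisons with it allele and transgene cannot be told apart. Between *icb38* and *ot267* they were *egl-18* (0.62, edgeR adjusted p = 0.00208), *elt-6* (0.44, edgeR adjusted p = 0.0826) and *rnt-1* (1.03, edgeR adjusted p = 0.0271), all log2 differences and higher in *icb38*. Between *ot269* and *ot267* they were *ceh-16* (1.46), *egl-18* (0.45), *elt-1* (0.51), *rnt-1* (1.66) and *eff-1* (0.49), higher in *ot269*, and *aff-1* (-1.11), lower in it, with edgeR adjusted p between 0.00189 and 0.0389. Between *ot269* and *icb38* they were *nhr-25* (0.47, edgeR adjusted p = 0.0173) and *eff-1* (0.39, edgeR adjusted p = 0.0686), higher in *ot269*. For *elt-3* the effect of *ot269* against *ot267* exceeded that of *icb38* against JR667 by 0.62 on the log2 scale (edgeR adjusted p = 0.0872). With 3 libraries per strain, single libraries were not screened as outliers.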

How the results depend on the processing

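No called gene changed its direction in any alternative run. TMM kept every count. No filter, at least 10 counts in every library, 1 entry per gene and DESeq2 changed the count only in *icb38* against *ot267*, to 4, where *ceh-16* was added. At a threshold of 0.05 the count was 2 in *icb38* against JR667, 1 in *ot267* against JR667, 7 in *ot269* against JR667, 2 in *icb38* against *ot267*, 1 in *ot269* against *icb38* and 7 for the F-test. Library totals gave 1 in *ot267* against JR667, where *elt-3* was lost, 3 in *ot269* against *icb38*, 9 for the F-test and 3 in *icb38* against *ot267*, where *elt-6* was lost and *aff-1* gained. They moved the median of all genes to 0.13 in *ot269* against JR667 and against *icb38*, and put 71.1% and 78.3% of all calls on the higher side there, against 48.3% and 55.4%. The split also moved to 66.8% from 47.1% in *ot267* against JR667, to 27.1% from 41.0% in *icb38* against *ot267*, and to 66.5% from 56.3% in *ot269* against *ot267*. With only the 6 libraries compared, the count was 3 in *icb38* against JR667, where *ceh-16* was lost, 1 in *ot267* against JR667, 7 in *ot269* against *ot267*, 5 in *ot269* against *icb38* and 3 in *icb38* against *ot267*, where *elt-6* was lost and *ceh-16* gained. The replicate block gave 1 in *ot269* against *icb38*, where *eff-1* was lost. It gave 3, 7 and 2 in *icb38* against JR667, *ot269* against JR667 and *icb38* against *ot267*, where *ceh-16*, *bro-1* and *elt-6* were lost. The numbers were not taken to pair the libraries, and why these calls were lost under the block was not tested. With replicate 1 of JR667 and of *icb38* both left out, an alternative chosen after seeing the data, the count was 6 in *icb38* against JR667, 1 in *ot267* against JR667, 5 in *icb38* against *ot267*, 7 in *ot269* against *ot267* and 8 for the average of the upstream alleles. Leaving out 1 library at a time gave 2 to 4 in *icb38* against JR667, 1 to 2 in *ot267* against JR667, 7 to 8 in *ot269* against JR667, 1 to 3 in *icb38* against *ot267*, 2 to 7 in *ot269* against *ot267*, 1 to 3 in *ot269* against *icb38*, 7 to 8 for the average of the upstream alleles and 7 to 9 for the F-test. A fit with a library left out also has fewer libraries, and the causes of these changes were not tested.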
